A study of Homo sapiens with 18 samples.

Results

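The 10 genes described here, YAP1, WWTR1, TEAD1, CCN1, CCN2, ANKRD1, AXL, AMOTL2, AJUBA and LATS2, belong to the YAP and TEAD pathway. They were taken by gene symbol from the 21411 rows of the deposited count and CPM (read counts scaled to library size) tables. All 10 were found, and all 10 passed the filter on low values in every comparison. RNA was sequenced from MDA-MB-231 cells, a human triple-negative breast cancer line, grown for 7 days as spheroids in Matrigel, a basement membrane gel. The 18 libraries fall into 6 groups with 3 biological replicates each. Jag1WT were the parental cells, with their own expression of the Notch ligand gene JAG1. Jag1KO were parental cells edited in JAG1 with Cas9, and the line was a mixture of single-cell clones. Jag1KO + rescue and Jag1KO + ctrl were Jag1KO cells that carried a Jagged1 plasmid or the empty plasmid under G418 selection. siCtrl and siJag1 were Jag1WT cells transfected with nontargeting or JAG1 siRNA shortly before they were seeded, and were harvested on the same day as the other groups. Of these groups, 3 have higher JAG1 (Jag1WT, Jag1KO + rescue, siCtrl) and 3 have lower JAG1 (Jag1KO, Jag1KO + ctrl, siJag1). The question addressed in these genes was whether their level differs with JAG1.

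YAP and TAZ, the products of YAP1 and WWTR1, are coactivators that shuttle between cytoplasm and nucleus. The kinases of the Hippo pathway phosphorylate them and keep them out of the nucleus, while a stiff matrix, spreading and actin tension favour their nuclear entry. In the nucleus they bind TEAD factors such as TEAD1 and raise transcription of genes that include CCN1 and CCN2, which encode secreted matricellular proteins, ANKRD1, which encodes an ankyrin repeat protein, and AXL, which encodes a receptor tyrosine kinase. AMOTL2, AJUBA and LATS2 also respond to YAP and in turn act on the pathway. MDA-MB-231 cells are known to lack a functional NF2, an upstream activator of the Hippo kinases, and to hold much YAP in the nucleus. Control of YAP and TAZ acts largely on the proteins, which were not measured here.

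The libraries held 10330581 to 18327890 reads counted on genes, and the members had 446 to 21520 reads in a library. JAG1 itself was at 433, 585 and 522 CPM in Jag1WT and at 116, 205 and 149 CPM in Jag1KO. It was at 534, 657 and 646 CPM in Jag1KO + rescue and at 110.2, 134 and 147 CPM in Jag1KO + ctrl. In the siRNA pair it was at 441, 626 and 531 CPM in siCtrl and at 166, 203 and 131 CPM in siJag1. The 9 libraries of the higher groups all lay above the 9 of the lower groups, and the JAG1 transcript was reduced, not absent, in each lower group. The authors checked the knockout clones by DNA sequencing and Western blotting. The transcript left in Jag1KO and Jag1KO + ctrl comes from the edited gene and does not give the level of Jagged1 protein. The log2 difference of JAG1 was 1.71 ± 0.22 (SE) in Jag1WT against Jag1KO with an adjusted p of 0.0136, 2.22 ± 0.18 in the rescue pair, Jag1KO + rescue and Jag1KO + ctrl (0.0227), and 1.68 ± 0.19 in siCtrl against siJag1 (0.103, or 0.0213 once libraries were blocked by replicate). The mesenchymal markers VIM and CD44 were high in every library (at least 2184 and 396 CPM), whereas ESR1 and CDH1 stayed at or below 0.136 and 1.16 CPM, and the defining markers COL1A2, DCN, CDH5 and PTPRC of fibroblasts, endothelium and leukocytes stayed at or below 0.196 CPM. Other genes of those marker lists had reads, such as CD68 at 88.9 to 209 CPM and KDR at 5.74 to 16.9 CPM. PECAM1 was at 0.954 to 15.1 CPM and COL1A1 at 2.66 to 10.04 CPM. ERBB2 and EPCAM, listed with ESR1 and CDH1 as low or absent, were at 32.5 to 59.98 and 5.18 to 8.99 CPM. PGR of the same list stayed at or below 1.77 CPM. Libraries of 1 group differed in growth state: the mean log2(CPM + 1) of 54 G2/M genes was 4.06 in Jag1KO replicate 1 against 6.01 and 6.09 in replicates 2 and 3, and 4.67 in Jag1KO + ctrl replicate 3 against 6.11 and 6.55 in replicates 1 and 2. In siJag1 it was 6.45 in replicate 2 against 4.55 and 4.72 in replicates 1 and 3. The groups with higher JAG1 varied as well, each with replicate 2 above replicates 1 and 3. The values were 5.41 against 4.28 and 4.26 in Jag1WT and 5.55 against 4.06 and 4.35 in Jag1KO + rescue. In siCtrl they were 5.59 against 4.33 and 4.74. Since these are bulk libraries, fewer cells of a kind and less RNA per cell cannot be told apart.

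The promoters of CCN2 and ANKRD1 are shown first, because these genes had the lowest log2 differences in the mean of the 3 JAG1 comparisons. The windows are the 250 bases before the RefSeq start site in GRCh38.p14, read 5′ to 3′ on the strand of the gene, and capitals mark the letters GGAATG, the core to which TEAD factors bind, on either strand.
CCN2, chr6:131951373-131951622, minus strand: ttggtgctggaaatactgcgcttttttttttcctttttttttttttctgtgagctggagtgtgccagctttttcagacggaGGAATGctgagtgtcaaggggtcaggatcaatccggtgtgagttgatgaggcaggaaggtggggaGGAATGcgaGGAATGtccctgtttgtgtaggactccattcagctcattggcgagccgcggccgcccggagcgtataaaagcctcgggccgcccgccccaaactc
ANKRD1, chr10:90921088-90921337, minus strand: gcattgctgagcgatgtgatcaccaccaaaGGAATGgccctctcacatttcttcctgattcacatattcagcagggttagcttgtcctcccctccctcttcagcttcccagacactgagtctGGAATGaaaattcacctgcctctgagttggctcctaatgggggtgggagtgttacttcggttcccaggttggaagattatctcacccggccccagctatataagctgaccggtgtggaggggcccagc
CCN2 held 3 matches, whose first bases lie at −169, −104 and −95 from the start site. ANKRD1 held 2 matches, whose first bases lie at −220 and −128. Windows from 250 bases before to 50 bases after the start were searched for all genes with an entry, and 8 of the 10 members had one. Of these 8, 7 held the GGAATG core, with 1 match each in YAP1, AXL, AMOTL2, AJUBA and LATS2 and none in WWTR1. Among 35116 promoters of the same length 14% held at least 1 match, 1.37% at least 2 and 0.128% at least 3. The AP-1 site TGANTCA occurred in ANKRD1 alone among the 8 (7.71% of all promoters), and the RBPJ site GTGGGAA, the site of the Notch pathway's DNA-binding factor, in AXL alone (6.25%). The CArG box, to which SRF binds, occurred in none of the 8 (1.29% of all promoters). The AP-1 and RBPJ sites were also searched on both strands, and no match overlapped a match of another motif. CCN1 and TEAD1 had no entry. The windows of AXL, WWTR1, AMOTL2 and AJUBA lie inside the gene spans given below, before a RefSeq start site downstream of the outermost end. Their matches, and the lack of them, hold for these start sites only.

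Per kilobase of gene length, the secreted proteins and AXL stood above the pathway's own factors. CCN1 had the highest mean over the 18 libraries at 299 CPM per kilobase, followed by AXL at 235 and CCN2 at 118. ANKRD1 was at 45.6, YAP1 at 43.8, AJUBA at 38.9 and TEAD1 at 30.1. WWTR1 was at 22.2, AMOTL2 at 13.8 and LATS2 at 7.69, so that the YAP1 transcript was at a higher level than that of its paralog WWTR1. The members also differed in how far they varied. The ratio of the highest to the lowest library was 4.32 for CCN2, 2.97 for ANKRD1, 2.24 for WWTR1 and 2.18 for CCN1, and it was 1.41 for YAP1 and 1.43 for TEAD1.

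**Figure D1:**
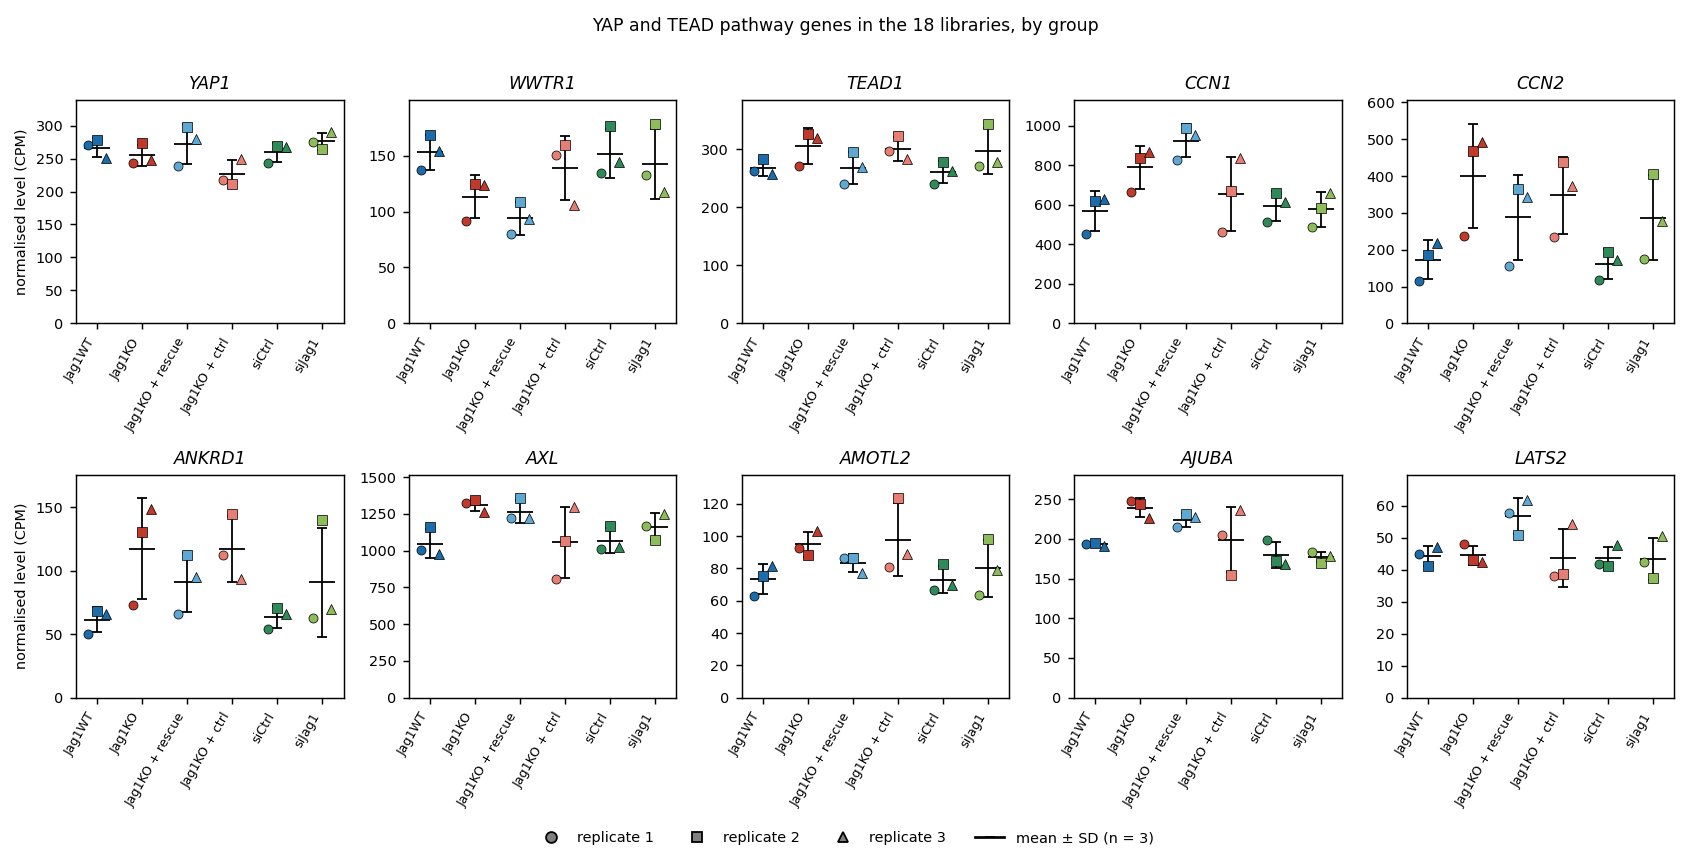
Normalised level (CPM, linear axis from 0) of the 10 genes in each library, by group. Symbols give the replicate number, and bars give the mean ± SD of 3 replicates. CCN2 and ANKRD1 have their lowest group means in Jag1WT and siCtrl, and YAP1 and TEAD1 vary least.

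In the comparison of Jag1WT with Jag1KO, most members were lower in Jag1WT. For 6 genes (CCN1, CCN2, ANKRD1, AXL, AMOTL2 and AJUBA) every Jag1WT library lay below every Jag1KO library, and for WWTR1 every Jag1WT library lay above. These 7 of 10 members without overlap stand beside 13.8% of the 12879 genes tested, of which 6.58% were lower and 7.24% higher. A gene was called where edgeR's quasi-likelihood test gave an adjusted p below 0.05 and the fold change exceeded 1.5, and by this rule 0 of the 10 members were called, beside 0.707% of all genes. At an unadjusted p below 0.05, 7 of 10 passed, 6 of them lower in Jag1WT and 1 higher, beside 8.74% of all genes, 4.39% lower and 4.35% higher. The median log2 difference of the members was −0.32, and that of all genes tested was −0.0089. DESeq2 and a fit blocked by replicate number called 2 members, CCN2 and ANKRD1, and without Jag1KO replicate 1, the library of its group with the lowest G2/M mean, 3 members were called, CCN1, CCN2 and ANKRD1. The fits of this pair with 1 library left out called 12 to 840 of all genes, and 5 of these 6 fits called 0 members. The share of all genes in the fit without Jag1KO replicate 1 is not given here. Its 3 members therefore cannot be set beside that share.

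Jag1KO + rescue against Jag1KO + ctrl gave another picture. No member separated the groups (beside 32.5% of the 12850 genes tested), 0 of 10 were called (beside 0.00778%), and 1 of 10, WWTR1, had an unadjusted p below 0.05 (beside 30.7%). The log2 differences lay 5 above and 5 below 0, with a median of −0.0015 against −0.0024 over all genes. Without Jag1KO + ctrl replicate 3, 2 members were called, WWTR1 lower and CCN1 higher in the rescue. The fits of this pair with 1 library left out called 0 to 3623 of all genes, and 5 of these 6 fits called 0 members. The share of all genes in the fit without Jag1KO + ctrl replicate 3 is not given here. Its 2 members therefore cannot be set beside that share. In siCtrl against siJag1 no member separated the groups (beside 10.5% of 12774 genes), 0 of 10 were called (beside 0.0157%) and 1 of 10, CCN2, had an unadjusted p below 0.05 (beside 3.85%). The median was −0.10 against −0.0073 over all genes. Same-numbered libraries of the siRNA pair deviated together (correlations 0.543, 0.522 and 0.264), and these values take no account of that. A fit blocked by replicate number also called 0 members in this pair. The mean of the 3 comparisons, in a fit of all 18 libraries, called 0 of 10 members beside 0.917% of 12757 genes, and 4 of 10 (CCN2, ANKRD1, TEAD1 and AMOTL2) had an unadjusted p below 0.05 with a negative difference, beside 15.1% of genes that were lower and 26.5% in both directions. DESeq2 called CCN2 and ANKRD1 in this mean.

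**Figure D2:**
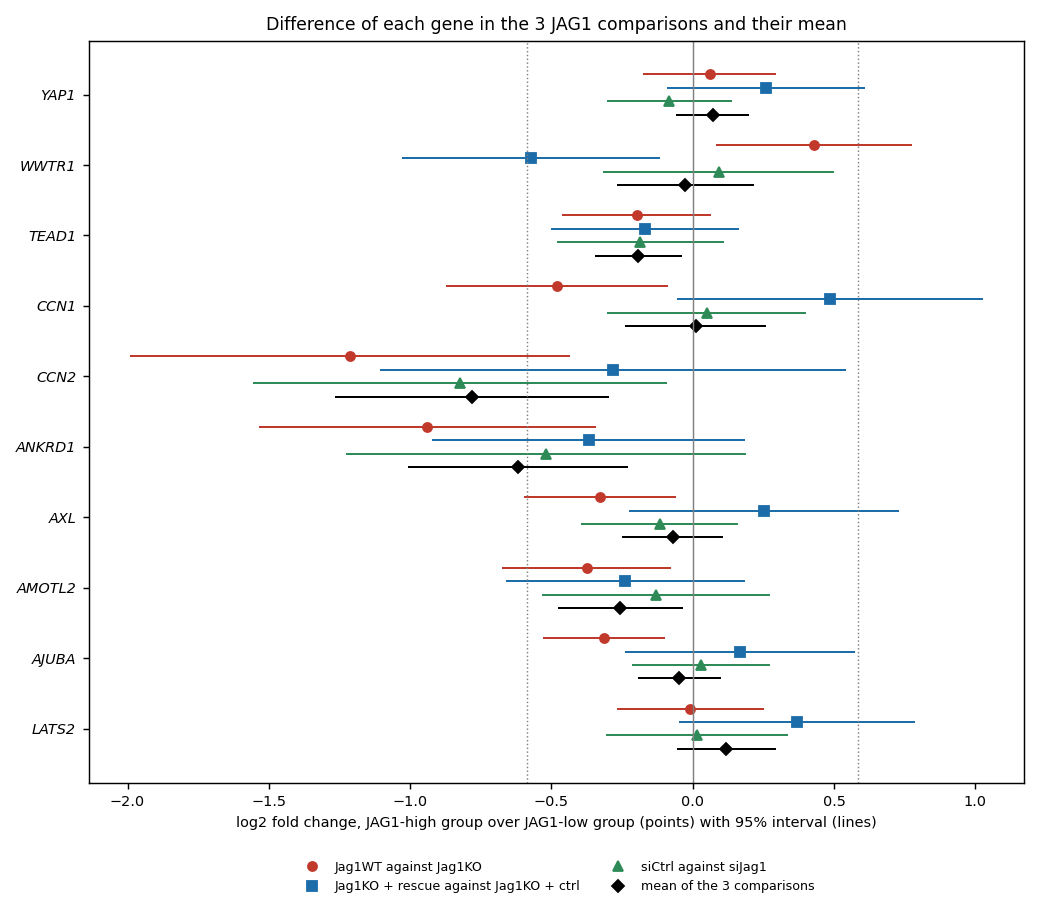
Log2 fold change of each gene (points) with its 95% interval (lines) in the 3 JAG1 comparisons and in their mean, with the JAG1-high group in the numerator. The dotted lines mark a fold change of 1.5, and the points of CCN2, ANKRD1, AMOTL2 and TEAD1 lie below 0 in all 3 comparisons.

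CCN2 (Entrez 1490, chromosome 6, 131948176 to 131951372, minus strand, hg38), the most variable member, was at 114, 186 and 218 CPM in Jag1WT and at 237, 468 and 493 CPM in Jag1KO. It was at 155, 366 and 342 CPM in Jag1KO + rescue and at 233, 439 and 372 CPM in Jag1KO + ctrl. The siRNA pair had 117, 195 and 173 CPM in siCtrl and 175, 405 and 278 CPM in siJag1. Between libraries of the same number, CCN2 was lower in the group with more JAG1 in 9 of 9 pairs, those of the siRNA pair included. Only the first pair of groups did not overlap, and the replicate numbered 1 was the lowest of its group in all 6 groups. The log2 difference was −1.21 ± 0.33 (SE, n = 3 per group, 95% interval −1.99 to −0.44, adjusted p = 0.281) in Jag1WT against Jag1KO, a 2.32-fold lower level, and −0.28 ± 0.36 (−1.10 to 0.54, 0.591) in the rescue. In siCtrl against siJag1 it was −0.82 ± 0.31 (−1.55 to −0.10, 0.974), and the mean of the 3 comparisons was −0.78 ± 0.23 (−1.26 to −0.30, 0.0808). The value of the first comparison passed without Jag1KO replicate 1 (−1.48, adjusted p = 0.0232), and the mean passed without Jag1KO replicate 1 (0.0421) or without Jag1KO + ctrl replicate 3 (0.0384). In the other 5 of 6 edgeR fits with 1 library left out, the first comparison did not pass (adjusted p up to 0.817). The mean did not pass in the other 16 of 18 (up to 0.185).

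ANKRD1 (Entrez 27063, chromosome 10, 90912096 to 90921087, minus strand), a nuclear protein first known from stretched heart muscle, had the same 4 groups with higher means as CCN2, in the same order. It was at 50.0, 68.4 and 65.5 CPM in Jag1WT and at 72.7, 131 and 148 CPM in Jag1KO. Levels were 65.8, 112 and 94.7 CPM in Jag1KO + rescue and 112, 145 and 93.5 CPM in Jag1KO + ctrl. In siCtrl they were 53.7, 70.5 and 65.5 CPM, and in siJag1 62.3, 139.9 and 70.1 CPM. The single siJag1 replicate 2 library thus carried most of the siRNA difference, and it was the siJag1 library with the highest G2/M mean. The log2 difference was −0.94 ± 0.26 (95% interval −1.53 to −0.35, adjusted p = 0.262) in Jag1WT against Jag1KO, −0.37 ± 0.24 (−0.92 to 0.18, 0.305) in the rescue and −0.52 ± 0.30 (−1.22 to 0.18, 0.974) in the siRNA pair. The mean of the 3 was −0.62 ± 0.18 (−1.01 to −0.23, 0.0825). Without Jag1KO replicate 1 the first comparison passed (−1.20, adjusted p = 9.68e-04), and the mean passed without that library (0.0384) or without Jag1KO + ctrl replicate 3 (0.0232). In the other 5 of 6 edgeR fits with 1 library left out, the first comparison did not pass (adjusted p up to 0.818). The mean did not pass in the other 16 of 18 (up to 0.192).

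CCN1 (Entrez 3491, chromosome 1, 85580761 to 85584589, plus strand) encodes a secreted integrin ligand like CCN2, but its levels ran differently. It was at 453, 619 and 632 CPM in Jag1WT and at 664, 839 and 867 CPM in Jag1KO. The rescue group had the highest mean, with 829, 989 and 954 CPM, above the 463, 667 and 838 CPM of Jag1KO + ctrl in all but 1 pairing of libraries. In siCtrl it was at 513, 659 and 615 CPM and in siJag1 at 487, 582 and 662 CPM. CCN1 was thus lower with JAG1 in the knockout pair and higher with JAG1 in the rescue pair. The log2 differences were −0.48 ± 0.17 (95% interval −0.87 to −0.09, adjusted p = 0.428) and 0.48 ± 0.23 (−0.05 to 1.02, 0.193). That of the siRNA pair was 0.05 ± 0.15 (−0.30 to 0.40, 0.985). The first passed without Jag1KO replicate 1 (−0.60, adjusted p = 0.0310) and the second without Jag1KO + ctrl replicate 3 (0.70, 0.0289). Each failed to pass in the other 5 of 6 edgeR fits with 1 library left out (adjusted p up to 0.9996 and 0.497). AXL (Entrez 558, chromosome 19, 41219223 to 41261766, plus strand), the receptor of GAS6, was at 977 to 1162 CPM in Jag1WT and at 1264 to 1346 CPM in Jag1KO, with log2 differences of −0.33 ± 0.12 in the knockout pair (adjusted p = 0.425), 0.25 ± 0.20 in the rescue (0.404) and −0.12 ± 0.12 in the siRNA pair (0.974). Its 3 Jag1KO + ctrl libraries ranged from 810.2 to 1295 CPM, more widely than those of any other group.

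Among the factors themselves, WWTR1 (Entrez 25937, chromosome 3, 149517235 to 149736714, minus strand), the gene of TAZ, had the largest differences in the knockout and rescue pairs, while TEAD1 had a larger one in the siRNA pair and in the mean. It was at 137, 168 and 154 CPM in Jag1WT and at 91.6, 125 and 124 CPM in Jag1KO. In Jag1KO + rescue it was at 79.6, 109 and 93.3 CPM, and in Jag1KO + ctrl at 151, 159.9 and 106 CPM. The siCtrl and siJag1 libraries had 135, 177 and 144 CPM and 132, 178 and 118 CPM. WWTR1 was thus higher with JAG1 in the knockout pair, lower with JAG1 in the rescue pair, and the rescue had the lowest mean of all groups. The log2 difference was 0.43 ± 0.15 (95% interval 0.09 to 0.77, adjusted p = 0.417) in Jag1WT against Jag1KO and −0.57 ± 0.20 (−1.02 to −0.12, 0.120) in the rescue. In siCtrl against siJag1 it was 0.09 ± 0.18 (−0.31 to 0.50, 0.982). The rescue value passed in the fit of all 18 libraries (−0.60, adjusted p = 0.0370) and without Jag1KO + ctrl replicate 3 (−0.73, 0.0143). It did not pass in the other 5 of 6 edgeR fits of this pair with 1 library left out (adjusted p up to 0.380).

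YAP1 (Entrez 10413, chromosome 11, 102110447 to 102233424, plus strand) was the steadiest member. Its group means lay between 226 ± 21.0 CPM (SD, n = 3) in Jag1KO + ctrl and 277 ± 12.9 CPM in siJag1, and each neighbouring pair in the order of the 6 means overlapped. The log2 differences were 0.06 ± 0.10, 0.26 ± 0.15 and −0.08 ± 0.09 in the 3 comparisons (adjusted p = 0.912, 0.260 and 0.974), and their mean was 0.07 ± 0.06 (95% interval −0.05 to 0.20). TEAD1 (Entrez 7003, chromosome 11, 12674421 to 12944737, plus strand) varied little as well but in 1 direction. Its log2 differences were −0.20 ± 0.11, −0.17 ± 0.14 and −0.19 ± 0.13 (adjusted p = 0.670, 0.425 and 0.974), and their mean was −0.19 ± 0.07 (−0.34 to −0.04, adjusted p = 0.125). The groups overlapped in all 3 comparisons, with 256 to 282 CPM in Jag1WT and 271 to 327 CPM in Jag1KO.

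Of the targets that act back on the pathway, AMOTL2 (Entrez 51421, chromosome 3, 134355347 to 134375479, minus strand), which binds YAP at the membrane, was at 63.1, 75.2 and 81.6 CPM in Jag1WT and at 92.8, 88.3 and 103 CPM in Jag1KO. Its log2 differences were −0.38 ± 0.13 (adjusted p = 0.411), −0.24 ± 0.18 (0.376) and −0.13 ± 0.17 (0.976), with a mean of −0.26 ± 0.10 (0.144). AJUBA (Entrez 84962, chromosome 14, 22971177 to 22982551, minus strand), a LIM protein that restrains the LATS kinases, was at 194, 195 and 191 CPM in Jag1WT and at 248, 244 and 226 CPM in Jag1KO. This was the tightest separation of the set, with an SD of 1.84 CPM in Jag1WT and 11.5 CPM in Jag1KO. The log2 difference was −0.31 ± 0.09 (adjusted p = 0.312), against 0.17 ± 0.17 in the rescue (0.520) and 0.03 ± 0.10 in the siRNA pair (0.986). LATS2 (Entrez 26524, chromosome 13, 20973036 to 21061586, minus strand), one of the kinases that inactivate YAP and TAZ, had nearly equal means in 5 groups (43.4 to 44.5 CPM) and a higher one in Jag1KO + rescue. The rescue libraries were at 57.7, 51.0 and 61.9 CPM, above every library of Jag1KO but overlapping Jag1KO + ctrl, which was at 38.1, 38.7 and 54.3 CPM. The rescue difference was 0.37 ± 0.18 (95% interval −0.04 to 0.78, adjusted p = 0.195).

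Whether the comparisons differed from each other was tested by interaction contrasts in the fit of 18 libraries, called at an adjusted p below 0.05. Between the knockout pair and the rescue pair 1 of 10 members differed, WWTR1, beside 6.84% of the 12757 genes. Its log2 difference between the pairs was 1.03 ± 0.28 (95% interval 0.44 to 1.61, adjusted p = 0.0390). Leaving out single libraries moved this adjusted p to between 0.00567 and 0.107, and 10 of the 18 such fits ended the call, those without Jag1WT replicates 2 and 3, Jag1KO replicates 1 and 2, Jag1KO + rescue replicates 1 and 3, Jag1KO + ctrl replicates 1 and 2, siCtrl replicate 3 and siJag1 replicate 1. CCN1 differed in the other direction by −0.94 ± 0.28 (adjusted p = 0.0565), and this passed with DESeq2 (0.0169). AXL gave −0.56 ± 0.20 (0.0950) and AJUBA −0.46 ± 0.17 (0.0973). Without Jag1KO + ctrl replicate 3, 5 members passed, among them CCN1 (0.00831), AXL (0.0105) and AJUBA (0.0109). Over the 18 fits with 1 library left out, 118 to 2861 of all genes passed in this contrast. The share of all genes in the fit without Jag1KO + ctrl replicate 3 is not given here, so its 5 members cannot be set beside that share. Between the knockout pair and the siRNA pair 0 of 10 members differed (beside 0.125%), and between the rescue pair and the siRNA pair 0 of 10 differed (beside 2%).

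Across all 6 groups, the test for any difference gave the lowest adjusted p for AJUBA (0.0737), WWTR1 (0.0918) and CCN1 (0.0929), and 0 of 10 members passed beside 8.22% of genes. At an unadjusted p below 0.05, 5 of 10 passed beside 28.6%, and DESeq2 called 5 of 10. The share of all genes that DESeq2 called in this test is not given here. The orders of the group means showed that the knockout-derived groups (Jag1KO, Jag1KO + rescue and Jag1KO + ctrl) held the 3 highest means of CCN1, CCN2, ANKRD1, AMOTL2 and AJUBA and the 3 lowest of WWTR1, in each case including the rescue with its high JAG1. For CCN2 and ANKRD1 the rescue mean lay only 1.46 and 0.058 CPM above that of siJag1. The share of all genes with such an order was not counted. Among these 6 genes, neighbours in the order overlapped, except Jag1KO + rescue and Jag1KO for AMOTL2. A contrast of the 3 knockout-derived with the 3 parental-derived groups was added after these values had been seen. It uses the same libraries as the order above, so its adjusted p values are a description and no separate evidence for that order. At an adjusted p below 0.05 it gave AJUBA higher (0.27 ± 0.07, adjusted p = 0.0244), CCN1 higher (0.43 ± 0.12, 0.0324) and WWTR1 lower (−0.39 ± 0.11, 0.0496), 3 of 10 beside 7.02% of genes, 3.14% higher and 3.87% lower. CCN2 (0.78 ± 0.23, 0.0515) and ANKRD1 (0.61 ± 0.18, 0.0560) lay just above the threshold. The call was lost in 15 of 18 fits without 1 library for WWTR1, in 9 of 18 for CCN1 and in 4 of 18 for AJUBA. These fits called 0 to 5 members and 647 to 1085 of all genes. They called 0 without Jag1WT replicate 1 or siCtrl replicate 3, 5 without siJag1 replicate 2, and 1 without Jag1WT replicate 3, Jag1KO replicate 2 or 3, Jag1KO + rescue replicate 3, siCtrl replicate 1 or 2, or siJag1 replicate 1. JAG1 itself was lower in the knockout-derived groups (−0.62 ± 0.12, adjusted p = 0.00482), so JAG1, editing, clonal selection and the plasmids cannot be told apart in this contrast.

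The growth state of the cultures varied with the groups and within them. Genes of S phase and G2/M had negative log2 differences for 94 of 97 in Jag1WT against Jag1KO (median −1.01), 89 of 97 in the rescue (−1.12) and 93 of 97 in the siRNA pair (−0.59), and 0 of 97 were called in each. In a fit of the 18 libraries with a coefficient for each group, so that only differences within groups count, 6 of 10 members changed with the G2/M mean at an adjusted p below 0.05, beside 48% of all genes, a share near that of the members. ANKRD1 rose by 0.43 ± 0.05 on the log2 scale per unit of this mean (adjusted p = 8.57e-06), WWTR1 by 0.28 ± 0.03 (2.64e-06) and CCN2 by 0.38 ± 0.13 (0.0239). TEAD1 (0.15 ± 0.03, 2.91e-04) and AMOTL2 (0.15 ± 0.06, 0.0369) rose as well, and LATS2 fell (−0.14 ± 0.04, 0.00750). YAP1, CCN1, AXL and AJUBA did not pass.

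With the G2/M mean as a covariate, an alternative added after the values were seen, the knockout difference of CCN2 became −0.86 (adjusted p = 0.306) and that of ANKRD1 −0.56 (0.0579). In the mean of the 3 comparisons CCN2 became −0.49 (0.328) and ANKRD1 −0.25 (0.237), and in the rescue pair both turned to small positive values (0.05 and 0.09). WWTR1 moved the other way, with a knockout difference of 0.64 that passed (adjusted p = 2.26e-04) and a rescue difference of −0.27 (0.0338, below the fold limit). Single libraries with like G2/M means can be set side by side. At a G2/M mean of 6.01 and 6.09, Jag1KO replicates 2 and 3 had 125 and 124 CPM of WWTR1, and at 6.11 and 6.55 Jag1KO + ctrl replicates 1 and 2 had 151 and 159.9 CPM. Among the libraries numbered 1 with G2/M means of 4.06 to 4.33, ANKRD1 was at 65.8 CPM in Jag1KO + rescue and 72.7 CPM in Jag1KO (both 4.06), and at 50.0 CPM in Jag1WT (4.28) and 53.7 CPM in siCtrl (4.33). Jag1WT replicate 3 (4.26), also in this range, had 65.5 CPM of ANKRD1, close to that rescue library. Just outside the range, Jag1KO + rescue replicate 3 (4.35) had 94.7 CPM.

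Immediate-early genes, which respond fast to stimuli and stress, were followed as a second state of the cultures. The mean log2(CPM + 1) of this list was 6.59 to 6.73 in Jag1KO + rescue, above every other library, and 4.95 to 6.43 in Jag1KO + ctrl. All 17 genes tested had positive log2 differences in the rescue, with a median of 0.84 and 0 called. In the same kind of fit 0 of 10 members changed with the immediate-early mean, beside 12.1% of genes. The slopes nearest to the threshold were those of LATS2 (0.31 ± 0.10, adjusted p = 0.0547), AXL (0.27 ± 0.10, 0.0986) and CCN1 (0.38 ± 0.15, 0.107). Within the 3 Jag1KO + ctrl libraries, replicate 3, with the highest immediate-early mean (6.43), had the highest CCN1, AXL, AJUBA and LATS2, and replicates 1 and 2 (5.38 and 4.95) the lower values. Replicate 3 also had the lowest G2/M mean (4.67 against 6.11 and 6.55), so both states cannot be told apart in these 3 libraries. From replicate 1 to 2, CCN1 (463 and 667 CPM), AXL (810 and 1064 CPM) and LATS2 (38.1 and 38.7 CPM) rose while the immediate-early mean fell. AJUBA fell with it (205 and 155 CPM). The part of the immediate-early state in the rescue values of these genes was not tested.

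**Figure D3:**
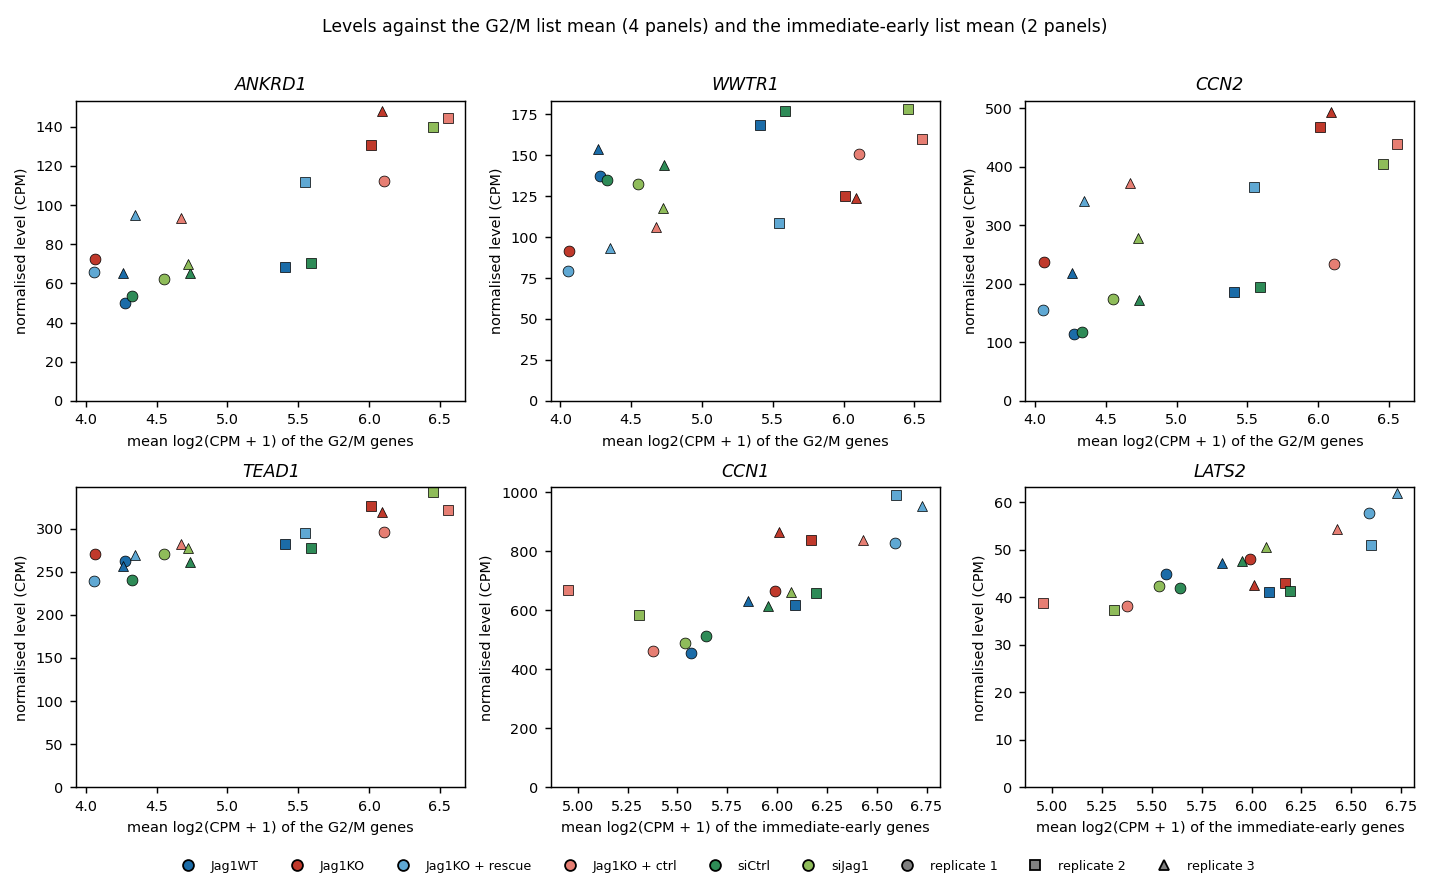
Levels (CPM) in the 18 libraries against the mean log2(CPM + 1) of the 54 G2/M genes for ANKRD1, WWTR1, CCN2 and TEAD1, and against that of the immediate-early genes for CCN1 and LATS2, with colours for groups and symbols for replicates. Within groups, libraries with a higher G2/M mean mostly have more ANKRD1 and WWTR1, and the 3 rescue libraries stand at the right end of the immediate-early axis.

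The rest of the pathway showed few calls in the 3 JAG1 comparisons and their mean. Of 44 Hippo kinases and regulators tested, 0 were called in each of the 3 JAG1 comparisons, and their medians were 0.01, 0.02 and 0.0025. In the mean of the 3, 1 of 44 was called lower, the atypical cadherin FAT4 (−0.67 ± 0.15, adjusted p = 0.0316), which lies upstream in the pathway. Of the other TEAD and VGLL cofactor genes 0 of 5 were called in the 3 comparisons and the mean, and of 16 genes of YAP signatures outside the members, of which PTPN14 is also counted among the Hippo regulators, 0 of 16. The medians of these 16 were −0.12 in the knockout pair, −0.09 in the rescue, −0.07 in the siRNA pair and −0.06 in the mean, with 11, 9, 10 and 11 of 16 below 0. Among 19 cytoskeletal targets of SRF and MRTF 1 was called, TAGLN2, which encodes an actin-binding protein and was higher in Jag1WT than in Jag1KO (0.79 ± 0.12, adjusted p = 0.0296). In the mean of the 3 comparisons 1 of 17 immediate-early genes was called, KLF2, a transcription factor gene (0.59 ± 0.13, 0.0427). Between the knockout and rescue pairs, where 6.84% of all genes differed, 4 of 44 Hippo regulators differed, SIKE1, LLGL1 and TNIK with positive values and FRMD6 with a negative one, and 1 of 5 cofactor genes, VGLL4, which encodes a repressor that competes with YAP for TEAD (0.78 ± 0.16, adjusted p = 0.0166). Of the 16 YAP signature genes 2 differed with negative values, F3 and ASAP1, and of the 19 SRF targets 1 with a positive value, TAGLN2. In the knockout-derived contrast, where 7.02% of all genes passed, MAP4K4, VGLL4, TAGLN2 and KLF2 were lower. FAT4, STK3, CRIM1, FOXF2, FILIP1L and FOS were higher. In the 6-group test (8.22% of genes), FAT4, LLGL1, MAP4K4, VGLL4, F3, CRIM1, TPM2, TAGLN2, FILIP1L, FOS and KLF2 passed.

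Genes that ran most like each member were sought among 9220 further genes with a mean of at least 10 CPM, by Pearson correlation of log2(CPM + 1) over the 18 libraries, which share groups and growth states. These are descriptions with no test. ANKRD1 ran closest to TRIM59 (r = 0.97), ASXL1 and COL8A1, and CCN2 to RGMB (0.91), TRIM59 and ANKRD13A. WWTR1 ran closest to NAV1 (0.97) and TGM2, and TEAD1 to FAT3 (0.94), FGF5 and AGK. CCN1 had JMJD1C (0.91), GABPB1 and GMEB2 nearest to it, and YAP1 had ADTRP (0.91), DENR and CALM2. LATS2 ran with FOSB (0.95), an immediate-early gene, and with ZNF394 and GTF2B. AXL had WDR35 (0.89), INSYN2B and RASGRP3, AMOTL2 had ETV4 (0.86) and PCNT among its nearest, and AJUBA had ST6GAL1 (0.84), IL11 and the ribosomal pseudogene RPLP0P2, whose reads may be shared with its parent gene.

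In the 2 control comparisons JAG1 was not changed on purpose. In Jag1KO + ctrl against Jag1KO the members' log2 differences ran from −0.33 (AXL) to 0.28 (WWTR1), with SE of 0.13 to 0.33, and in siCtrl against Jag1WT from −0.11 (AJUBA) to 0.06 (CCN1), with SE of 0.09 to 0.28. In both, 0 of 10 members were called by edgeR (beside 0% of genes) and 0 of 10 by DESeq2 (beside 13 genes and 0 genes), 0 had an unadjusted p below 0.05 (beside 5.8% and 1.39%), and 0 separated the groups (beside 10.1% and 6.3%).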

How the data were processed

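RNA was measured in 18 stranded mRNA libraries of MDA-MB-231 Matrigel cultures, 3 in each of 6 groups taken from the labels. The deposited counts are whole reads on 21411 genes, counted by the authors. The deposited CPM, treated as a signal since columns sum to 938087 to 1074370, are these counts over library sizes after TMM normalization by the authors. The deposited RPKM, CPM per kilobase by the authors, gave only gene lengths, and 3 RPKM columns that matched no label were not used. The submitters' processing notes name featureCounts, edgeR 3.28.0, R 3.6.1, MultiQC 1.5 and hg38, the authors counted uniquely mapped reads, and the aligner is not given in the sources used here. Rows without a symbol (292, holding up to 0.0442% of a library) were left out.

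Genes above 1 CPM in 3 of 6 libraries (9 of 18 in fits of 18) were tested with edgeR 4.0.16 in R 4.3.3 (quasi-likelihood F test, TMM, robust), with Benjamini-Hochberg adjustment over all genes tested. Calls needed an adjusted p below 0.05 and a fold change above 1.5, the limits the study used with another test, ROTS, which was not run here, and interaction, 6-group and knockout-derived contrasts the adjusted p alone. Alternatives were DESeq2 1.42.0, limma 3.58.1 on log2(CPM + 1), RLE factors, no filter, a replicate block, 1 fit of 18 libraries, leaving out each library, and the G2/M covariate (Seurat 5.3.0 gene list). The fits were tested on simulated data. Exact permutation over 3 against 3 libraries cannot go below p = 0.1 and was not used. Replicates of a group differed beyond counting noise (ratio of chi-square to its degrees of freedom 7.37 to 107). Same-numbered libraries deviated together for the siRNA pair (correlations 0.543, 0.522 and 0.264) and for Jag1WT with siCtrl (0.595, 0.713 and 0.210), which meets the rule for pairing. The reported values are from fits without a block, and the blocked fit is an alternative. The 10 genes and the lists were chosen with earlier results of these data known. All members, and listed genes called in a JAG1 comparison or their mean, are named. The interaction genes of the Hippo list, and the listed genes of the 6-group and knockout-derived tests, were named after their values were seen. Gene positions are from GENCODE v44 (hg38), promoters from RefSeq (GRCh38.p14). PALS1, VGLL1, VGLL2 and COL3A1 were not matched by symbol. Some genes that ran like a member are not reported here.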

Additional observations from a re-analysis of the deposited data

Results flagged for a closer look

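In the fit of 18 libraries, the difference of WWTR1 between the group with higher and the group with lower JAG1 was called as unlike in the knockout pair and the rescue pair. It was positive in Jag1WT against Jag1KO and negative in Jag1KO + rescue against Jag1KO + ctrl, and the interaction contrast of the 18-library fit gave 1.03 on the log2 scale with an adjusted p of 0.0390 by edgeR's quasi-likelihood test. The Jag1WT libraries were at 137 to 168 CPM against 91.6 to 125 CPM in Jag1KO, higher in 9 of 9 pairings of libraries, and the rescue libraries at 79.6 to 109 CPM against 106 to 159.9 CPM in Jag1KO + ctrl, lower in 8 of 9. DESeq2 gave 1.01 (adjusted p = 0.00888), limma 0.99 (0.0378) and the G2/M covariate 0.92 (1.88e-04). Leaving out single libraries ended the call in 10 of 18 fits, with an adjusted p of up to 0.107. WWTR1 was 1 of 10 members called in this contrast, beside 6.84% of all genes, so the count of members is near that share. The contrast also holds the difference between the lower groups of the pairs. In Jag1KO + ctrl against Jag1KO it was 0.28 ± 0.20 (edgeR, adjusted p = 0.771).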

How the results depend on the processing

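Of 390 log2 differences of members recomputed in the 3 JAG1 comparisons, 364 kept direction and side of the threshold, 11 came to pass it and 15 changed sign. Each member had at least 446 reads in a library, so the spread between 3 replicates, beyond counting noise, set the precision. Members called rose from 0 to 2 in Jag1WT against Jag1KO with DESeq2 and with the replicate block (CCN2, adjusted p 0.00494 and 8.69e-05, and ANKRD1, 0.0199 and 0.00367) and to 1 with the G2/M covariate, and ran from 0 to 3 with single libraries left out. In the rescue pair they rose to 1 in the fit of 18 libraries (0 to 2 with libraries left out), and in the mean of the 3 comparisons to 2 with DESeq2 and with the block (CCN2, 0.0155 and 9.71e-05, ANKRD1, 0.0214 and 0.0151; 0 to 2 with libraries left out). In these groups same-numbered libraries did not deviate together throughout (correlations 0.632, 0.667 and −0.0137 for Jag1WT and Jag1KO, −0.207, 0.345 and 0.242 for the rescue pair, −0.356, 0.279 and −0.610 for Jag1KO + ctrl and Jag1KO), so they share only a number there. In the paired comparisons the block called 0 members. The interaction of the knockout and rescue pairs gave 3 members with DESeq2, 2 with limma, 3 with the block, 5 with the G2/M covariate and 0 to 5 with libraries left out, that of the rescue and siRNA pairs 1 with the block and 1 with the covariate (0 to 2), and the 6-group test 5 with DESeq2, 5 with the block and 4 with the covariate (0 to 4). The knockout-derived contrast gave 5, 6 and 5 under these alternatives (0 to 5 with libraries left out). The cause of these moves was not tested. All genes called in Jag1WT against Jag1KO, 91, became 235 with DESeq2, 171 without the filter, 316 with the block and 247 with the covariate (12 to 840 with libraries left out). In the rescue pair 1 became 1583 with DESeq2, 33 without the filter, 2 with limma, 4 with the block, 1335 with the covariate and 2121 in the fit of 18 libraries (0 to 3623), and in the siRNA pair 2 became 24, 8, 0, 4, 16 and 7 (0 to 12). For Jag1KO + ctrl against Jag1KO, 0 became 13 with DESeq2, 27 with the covariate and 1 in the fit of 18 libraries (0 to 341), and for siCtrl against Jag1WT 1 with the block. In the mean, 117 became 396 with DESeq2 and 570 with the block (51 to 829). For interaction and group contrasts, all genes called ranged from 553 to 2643 around 873, from 16 to 27 around 16, from 49 to 1324 around 255, from 986 to 2931 around 1049 and from 893 to 1908 around 895 over the alternatives other than leaving out libraries. JAG1 passed in the siRNA pair with DESeq2 (adjusted p = 3.34e-13), without the filter (0.00471), with the block (0.0213), with the covariate (1.87e-04), in the fit of 18 libraries (0.00567) and without siJag1 replicate 2 (0.0138). It fell short in 4 fits without a library in the knockout pair (up to 0.141) and in 5 in the rescue pair (up to 0.246). With the covariate, CCN2 (0.052) and ANKRD1 (0.090) reversed in the rescue pair, LATS2 (−0.032) in the siRNA pair and WWTR1 (0.19) in the mean. Leaving out single libraries gave −0.061 to 0.042 for LATS2 in the knockout pair, −0.51 to 0.023 for CCN2 in the rescue pair, and in the siRNA pair −0.030 to 0.29 for WWTR1, −0.066 to 0.16 for CCN1, −0.28 to 0.057 for AMOTL2, −0.058 to 0.074 for AJUBA and −0.075 to 0.14 for LATS2. In the mean it gave −0.081 to 0.045 for WWTR1 and −0.056 to 0.080 for CCN1.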

Other observations

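Replicates that carry the number 1 stood low for some members in every group. The library numbered 1 was the lowest of its group in 6 of 6 groups for CCN1 and CCN2, in 5 of 6 for ANKRD1 and in 1 of 6 for AJUBA and LATS2. Between libraries of the same number, CCN2 and TEAD1 were lower in the group with more JAG1 in 9 of 9 pairs and ANKRD1 in 8 of 9, whereas CCN1 was lower in 4 of 9. These counts were made after the values had been seen and carry no test, since the labels do not say what a number shares between groups. In the knockout and rescue pairs, same-numbered libraries did not deviate together throughout. The share of all genes with such counts was not taken, so the counts do not set these members apart from other genes.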
